A study of Caenorhabditis elegans with 4 samples.

Results

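Closely spaced PQM-1::GFP binding regions were described, that is, regions whose midpoint lay within 1000 bp of the midpoint of another listed region on the same chromosome. They were chosen by their position, their width (under 1000 bp) and their q-value (1e-20 or more), all read from the same combined list. The choice left 844 members among 5803 listed regions, or 14.5%. Before the limits on width and q-value, 925 regions had such a neighbour. The q-value limit removed 79 of these, both limits together removed 2, and the width limit by itself removed 0.

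The nematode Caenorhabditis elegans has a zinc finger protein, PQM-1, that regulates transcription. It is known as a partner and antagonist of the FOXO factor DAF-16 in the insulin-like pathway, where it acts on genes of growth, fat metabolism and stress defence, largely in the intestine. Transcription factors often bind several separate elements of 1 regulatory region, and such neighbouring elements can be bound in the same cells or in different cells. A list made from whole worms does not separate these cases.

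The study made 2 extractions and sequenced each as input DNA and as anti-GFP ChIP DNA, which gives 4 libraries, all labelled as L3 hermaphrodites of strain OP201 kept at 20 °C and crosslinked with 2% formaldehyde. The labels' text on chromatin preparation speaks of embryos instead, and the stage could not be checked from a list of regions. Input and ChIP worms alike carried the allele unc119(ed3) and the transgene wgIs201, which joins pqm-1 to TY1, EGFP and FLAG tags and brings an unc119 copy. The fusion is carried as an added transgene in 1 bombarded strain, and the genotype names no change of the resident pqm-1 gene. The authors reduced the libraries to 1 list on WormBase WS180 coordinates, so no value below carries a spread between replicates, and p-values were not computed. Each q-value resolves into whole ChIP tags and scaled control tags, whose ratio is used here as strength. Its 95% interval (exact Clopper-Pearson, from the ChIP share of the tags) is meant to cover counting error only. It treats the scaled control as a plain count. The scaling is not known here, so the interval can be too narrow or too wide. The same holds for the counting standard errors below.

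Most closely spaced regions came as pairs. Chains in which each midpoint lay within 1000 bp of the next, called runs here, numbered 433. Of these, 379 held 2 regions, 50 held 3, 3 held 4 and 1 held 5. A total of 689 members stood in runs of 2, 140 in runs of 3 and 15 in the runs of 4 or 5. Runs with 2 or more members numbered 371, and in 317 of them the run was exactly 2 regions and both were members. In 55 runs a single member stood beside a region that failed the q-value limit, and 7 runs held no member. The rule therefore gave a set that was mainly pairs of moderate regions, with few longer series.

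Members lay a median of 781 bp apart from midpoint to midpoint over the 416 links between adjacent members; the middle 50% of links lay between 669 and 890 bp. The smallest distance was 397.5 bp. Edge to edge, the gaps ran from 200 to 797 bp with a median of 360 bp. The gaps of 200 to 249 bp formed the fullest class of 50 bp, with 75 links, and the number then fell in every later class to 1 link at 750 to 799 bp. The limit of 1000 bp between midpoints removes long gaps, so this decline is in part fixed by the rule. No gap in the whole list was under 200 bp, so regions closer than that do not appear as separate entries. Wider members left less room, and the gap and the summed width of the link had a Spearman's rho of -0.34 across 416 links, which is in part fixed by the limit of 1000 bp.

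Spacing changed gradually across the limit of 1000 bp. Among adjacent regions of the same width and q class, 13 pairs lay at 300 to 500 bp and 44 at 500 to 600 bp. The distances of 600 to 1000 bp held 359 pairs, or 89.8 per 100 bp, with the fullest class at 700 to 800 bp (110 pairs). Counts then declined to 61.3 per 100 bp at 1000 to 2000 bp and 38 per 100 bp at 2000 to 3000 bp. The members are thus the near end of a continuous distribution, and no gap in the distances separates them from more distant neighbours.

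**Figure D1:**
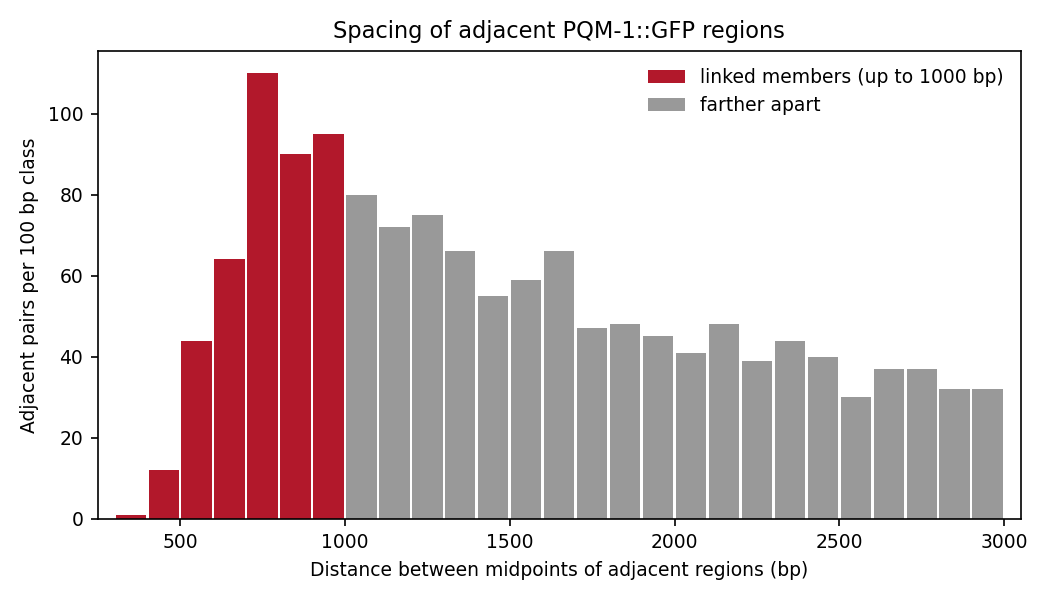
Number of pairs of adjacent regions (width under 1000 bp, q-value of 1e-20 or more) per 100 bp class of midpoint distance, with linked members in red and pairs farther apart in grey. The count is highest at 700 to 800 bp, with 110 pairs, and declines without a break across 1000 bp.

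The 3 closest links joined regions with few ChIP tags. On chromosome V, the region 19521367 to 19521446 held 21 ChIP and 4 scaled control tags (ratio 5.25, 95% interval 1.77 to 21.0). Its neighbour at 19521676 to 19521932, with the midpoint 397.5 bp away, held 40 against 19 tags (ratio 2.11, 95% interval 1.19 to 3.85). The second closest link, also on V, joined 6044614 to 6044787 with 6045062 to 6045188 over 424.5 bp, and their ratios were 2.58 and 3.29. The third, on X, joined 12154084 to 12154283 with 12154505 to 12154764 over 451 bp, and their ratios were 3.00 and 2.08. In each of these 3 links the intervals of both members overlapped, and no difference within a link is read from these values. All 6 regions had q-values between 0.00126 and 0.00961, near the end of the list.

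Members ranged in q-value from 1.20e-20 to 0.00975. The median member held 73 ChIP tags (lowest 17, highest 216), and its scaled control had a median of 24 tags (lowest 4, highest 76). Their ratio ran from 1.59 to 7.92 with a median of 2.91, and the middle 50% of members lay between 2.38 and 3.73. The 4229 lone regions of the same width and q class, with no midpoint within 1000 bp, had a median ratio of 2.78, and the middle 50% of them lay between 2.27 and 3.50. Widths were also close, at a median of 362 bp in members and 360 bp in lone regions, while the scaled control was 66.8 tags per kb in members and 70.0 in lone regions. The quartiles of both groups overlap almost fully in every one of these measures. These values come from the contrast that chose the members, and they are given without a test.

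Close neighbours were found at every strength. A q-value under 1e-10 was held by 189 members (22.4%), against 20.1% of all 5073 regions of the same width and q class, members included. A ratio of 5 or more was reached by 58 members (6.87%), against 5.4% of that class. With the class divided by q-value into 4 equal groups, from the strongest to the weakest, 18.4%, 16.2%, 15.8% and 16.2% of the regions were members. Among the 463 narrow regions with a q-value below the limit, 79 (17.1%) had a neighbour within 1000 bp. The shares thus stayed within a few percentage points of each other from the strongest to the weakest regions. Of the 267 regions of 1000 bp or more, 2 had such a neighbour. A wide region's own half-width takes up a large part of the allowed distance, and its part in this count was not tested.

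The strongest complete pairs lay on chromosomes IV and V. They are the 5 pairs in which the weaker member had the lowest q-value. On IV, the regions 10235425 to 10235846 and 10236064 to 10236544 had midpoints 668.5 bp apart. They held 124 against 24 and 130 against 21 tags, with ratios of 5.17 (95% interval 3.32 to 8.37) and 6.19 (95% interval 3.89 to 10.3). Both members of this pair were strong, and their intervals overlapped.

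The other 4 strong pairs were all on V. The regions 11647512 to 11648201 and 11648418 to 11648850 had ratios of 4 and 5.19 over 777.5 bp. The regions 13891473 to 13891923 and 13892399 to 13892982 had ratios of 4.57 and 4.16 over 992.5 bp. The regions 6665721 to 6666142 and 6666516 to 6666967 had ratios of 5.74 and 4.80 over 810 bp. The last pair held the highest ratio of any member, 7.92 (95% interval 4.43 to 15.4), at 11403056 to 11403420, beside a ratio of 5.40 (95% interval 3.33 to 9.19) at 11403714 to 11404120. Within each of these pairs the intervals overlapped. Both members had a q-value under 1e-10 in 14 of 416 links, 1 of the members in 160 and neither in 242. Such a q-value was held by 22.4% of single members and 20.1% of the regions of the same width and q class. No such count is given for adjacent pairs farther apart, so nothing is read from the number of links.

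Neighbours within 1 kb were only weakly alike in strength. Across the 416 links, the ratio of the left member and that of the right had a Spearman's rho of 0.15. For ChIP tags rho was 0.041, for ChIP tags per kb -0.043 and for the q-value -0.028, so the weak likeness of the ratio was not seen in the other measures of strength. The scaled control per kb had the highest value, with a rho of 0.36, and it is the divisor of the ratio. Both members of 127 links had a ratio at or above the class median of 2.80, both were below it in 94, and in 195 they stood on opposite sides. The q-value limit and the caller's own threshold cut the range at both ends, and the correlations describe the links of 1 list, whose regions share the same libraries and the same scaled control.

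**Figure D2:**
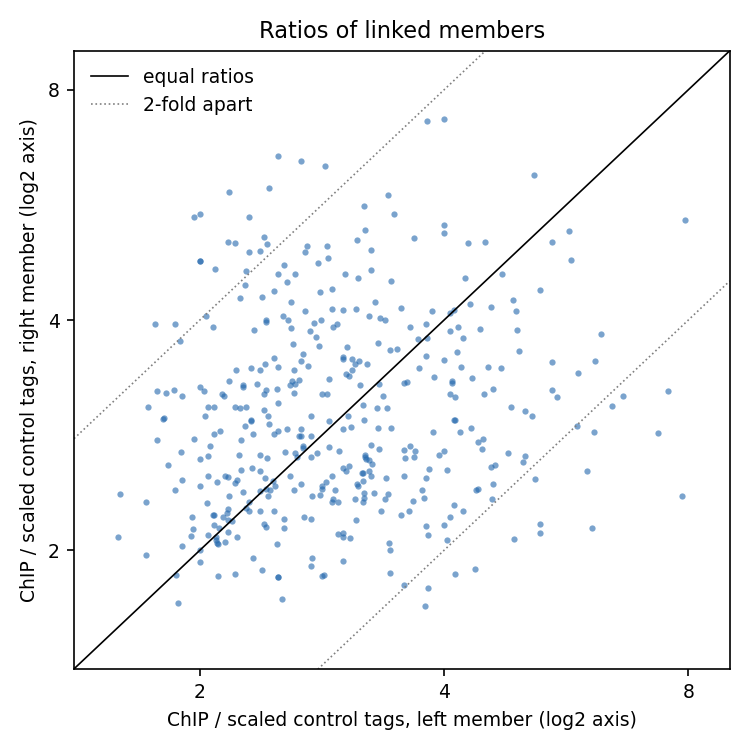
Ratio of ChIP to scaled control tags of the left (x axis) and right (y axis) member of each of 416 links, both axes on a log2 scale, 1 point per link, with a solid line of equal ratios and dotted lines 2-fold apart. The points form a broad cloud around the line (Spearman's rho 0.15), and 37 of them differ by 2-fold or more.

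Most links differed by little in absolute terms, as did adjacent pairs at larger distances. The stronger member had a median ratio of 3.44 and the weaker of 2.48, and the median fold between the members of a link was 1.32. The ratios lay within 1.5-fold of each other in 287 links (69.0%) and differed by 2-fold or more in 37 (8.89%). Adjacent pairs of the class farther apart were within 1.5-fold as often, with 70.6% at 1 to 2 kb, 69.8% at 2 to 5 kb, 68.3% at 5 to 10 kb and 68.1% over 10 kb, so this share is that of adjacent regions in general. The largest fold was 3.33. The left member had the higher ratio in 202 links, the right in 213, and in 1 they were equal. The wider member held more ChIP tags in 351 of 410 links with unequal widths and tags, and it had the higher ratio in 255 of 413 links with unequal widths and ratios.

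Counting error was not small beside these differences. The median absolute difference was 0.40 on the log2 scale, and the median counting standard error of such a difference was 0.48. A median difference and a standard error are unlike measures, and the part of counting error in the differences was not tested. The 95% intervals of the 2 members did not overlap in 5 links (1.20%, exact binomial interval 0.391% to 2.78%), against 2.33% of all 4470 adjacent pairs of the class at any distance. The difference exceeded 2 counting standard errors in 41 links (9.86%), against 10.9% of all adjacent pairs. Both shares are near or below the background, so a large contrast between close neighbours was no more common than between adjacent regions in general. With these intervals a moderate difference between 2 given neighbours was not detectable.

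For the ratio, likeness changed little with distance. Adjacent pairs of the same class at 1 to 2 kb had a rho of 0.17 (613 pairs), those at 2 to 5 kb of 0.15 (824 pairs), those at 5 to 10 kb of 0.15 (608 pairs) and those over 10 kb of 0.10 (2009 pairs). The median fold between neighbours was 1.30 to 1.32 in all 5 distance classes. The share of pairs on the same side of the class median was 53.1% within 1 kb, 56.6% at 1 to 2 kb, 54.98% at 2 to 5 kb, 54.1% at 5 to 10 kb and 53.1% over 10 kb. These values beyond 1 kb are from adjacent pairs of the whole class, mostly lone regions, and members were not compared with partners of their own farther away. The scaled control per kb, by contrast, had a rho of 0.36, 0.35, 0.33, 0.23 and 0.15 over the same 5 classes, falling with distance. ChIP tags had a rho of 0.041, 0.13, 0.085, 0.086 and 0.0081 in these classes. ChIP tags per kb had one of -0.043, 0.081, 0.036, 0.098 and 0.050. The lower values of both within 1 kb than at 1 to 2 kb were not tested. With each ratio divided by the median of its chromosome, rho for the ratio within 1 kb was 0.11.

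**Figure D3:**
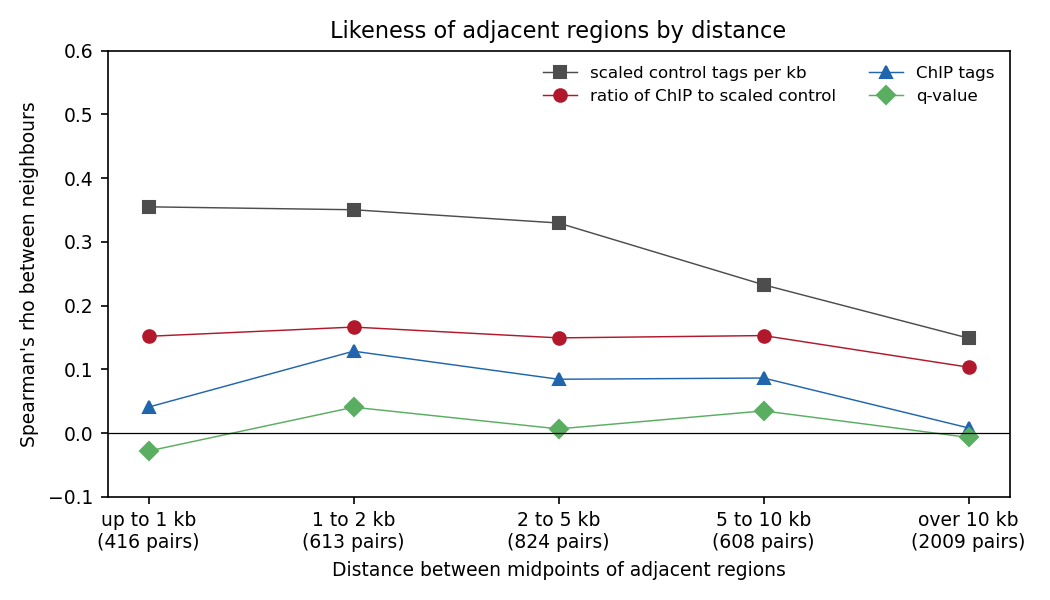
Spearman's rho between adjacent regions (y axis) for 4 measures in 5 classes of midpoint distance (x axis, number of pairs in brackets), for regions with a width under 1000 bp and a q-value of 1e-20 or more. The ratio stays between 0.10 and 0.17 and the q-value near 0, while the scaled control per kb falls from 0.36 to 0.15. ChIP tags lie between 0.0081 and 0.13, with 0.041 within 1 kb.

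Within the limit of 1000 bp, rho for the ratio was slightly lower in the closer links. Links at 300 to 600 bp had a rho of 0.13 for the ratio (57 links), those at 600 to 800 bp of 0.15 (174 links) and those at 800 to 1000 bp of 0.17 (185 links). The 13 links within 500 bp had a rho of -0.27, a value from very few links, and those within 750 bp one of 0.080. These differences were not tested. The distance itself had a rho of 0.035 with the mean log2 ratio of the link and of 0.038 with the absolute difference of its members. Closer members were narrower, with a median summed width of 554 bp at 300 to 600 bp and of 809 bp at 800 to 1000 bp.

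The links with the most unequal members show how far neighbours can differ. Only links with at least 50 ChIP tags in each member were ranked. On V, the region 15887891 to 15888317 held 128 against 21 tags (ratio 6.10, 95% interval 3.82 to 10.2). Its neighbour at 15888640 to 15889526 was 887 bp wide and held 107 against 50 tags (ratio 2.14, 95% interval 1.52 to 3.06). The 2 intervals were separate, in a link ranked first for its difference. On X, 11323229 to 11323519 had a ratio of 1.97 (95% interval 1.24 to 3.19) and 11324194 to 11324537 one of 5.45 (95% interval 3.44 to 9.03). On V, 8424319 to 8424598 had a ratio of 2.00 (95% interval 1.25 to 3.27) and 8425070 to 8425476 one of 5.50 (95% interval 3.54 to 8.89). Both of these links also had separate intervals. All 3 were picked for their difference from among the 416 links, of which 5 had separate intervals, a share below the background of 2.33%, so the separation is a description only.

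At the other end, some neighbours had the same ratio at unequal tag numbers. On III, 4493412 to 4493833 held 103 against 25 tags and 4494289 to 4494845 held 140 against 34, with a ratio of 4.12 in both. On IV, 13607175 to 13607628 and 13607909 to 13608377 had ratios of 2.42 and 2.41. On X, 12869235 to 12869509 held 57 against 26 tags and 12869760 to 12870307 held 107 against 49, with ratios of 2.19 and 2.18. The q-values of this last pair, 0.00122 and 8.04e-06, differed all the same, because the wider member held more tags.

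Longer runs differed in make-up. In the 2 runs of 4 that hold a region under the q-value limit, that region had the highest ratio. The q-value limit sets such a region apart as strong, so nothing is read from its rank. The longest run lay on III from 5812787 to 5815687, spanned 2901 bp and held 5 members. Their ratios along the chromosome were 2.38, 2.54, 4.72, 4.60 and 2.44. The third, at 5814007 to 5814482, held the most tags, 118 of the run's 273 ChIP tags, with a 95% interval of 3.05 to 7.59. The fourth was 40 bp wide and held 23 against 5 tags, so its interval of 1.71 to 15.5 overlaps those of all the others. The interval of the third also overlaps that of each other member.

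The 3 runs of 4 regions lay on III, IV and V. On III, from 6176808 to 6179472, 3 members with ratios of 3.31, 2.89 and 2.73 were followed by a non-member with a ratio of 8.70 (95% interval 5.46 to 14.6). On IV, from 12597389 to 12599522, 3 members with ratios of 2.44, 2.92 and 3.92 stood beside a non-member with a ratio of 6.43 (95% interval 4.13 to 10.5). In both of these runs the interval of the non-member overlapped that of each member. On V, from 8401865 to 8404378, all 4 regions were members and their ratios were 2.35, 3.30, 3.07 and 2.90, with overlapping intervals. The runs of 4 were described because of their length, after their values had been seen.

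**Figure D4:**
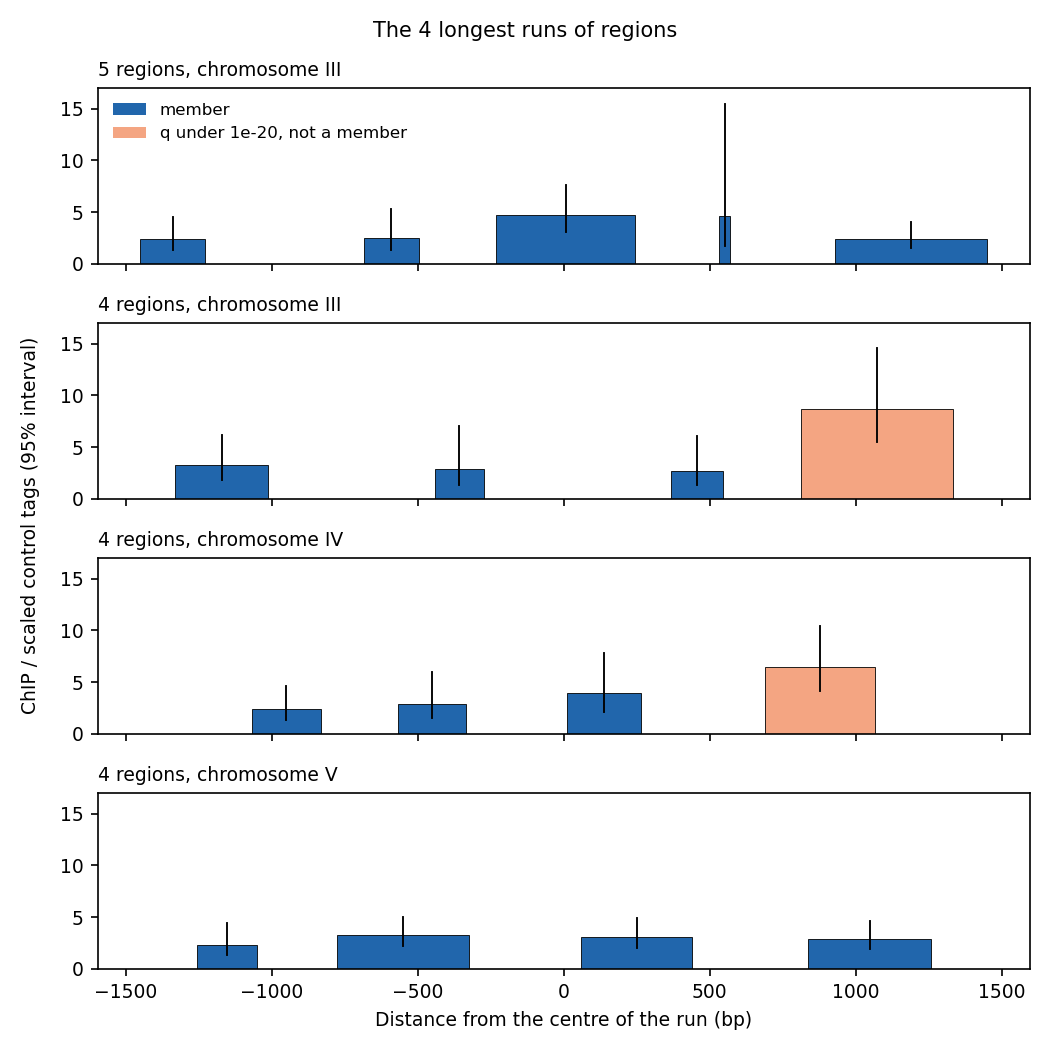
Ratio of ChIP to scaled control tags (y axis, bars from 0, with 95% Clopper-Pearson intervals as lines) of each region in the run of 5 and the 3 runs of 4, drawn to scale by position relative to the run's centre (x axis, bp), with bar width equal to region width. Members are blue and the regions under the q-value limit are orange, which are the highest bar of their run with ratios of 8.70 and 6.43.

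The 40 complete runs of 3 members spanned 1369 to 2696 bp with a median of 1919 bp. Their middle region had the highest ratio in 18 runs, the lowest in 14 and the intermediate one in 8. Any position among 3 unrelated values is more often highest or lowest than intermediate, and these ranks were not tested. The median ratio was 2.69 in the middle and 2.70 at the outer positions.

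Members beside a region under the q-value limit were ordinary in strength. In the 69 links between a member and a non-member, the member had a median ratio of 3.04 and 76 ChIP tags, and the non-member 6.50 and 189 ChIP tags. The member was the lower one in 68 of 69 links, which the q-value limit nearly fixes. Across these links rho between the ratios was 0.14. The intervals were separate in 14 links (20.3%), with the member lower in all 14; the rule set these regions apart by their low q-value, so nothing is read from this share.

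The strongest non-member in such a link lay on X, at 10141639 to 10142490, with 391 against 46 tags (ratio 8.50, 95% interval 6.25 to 11.8). The member beside it, at 10140923 to 10141438, held 60 against 26 tags (ratio 2.31, 95% interval 1.43 to 3.81). The second, on V at 8768400 to 8768873, had a ratio of 15.5 (95% interval 9.63 to 26.5), and its neighbour at 8769081 to 8769556 was itself among the strongest members, with a ratio of 6.04 (95% interval 3.87 to 9.85). The third, on X at 6518403 to 6519052, had a ratio of 9.76 and the member at 6519381 to 6519828 one of 4.26. The strong region was flanked by a weak member with a separate interval in the first case, and in the other 2 cases the intervals overlapped.

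Complete pairs can be set beside the broad regions of the list as a description. The 317 complete pairs spanned a median of 1158 bp, of which the 2 members covered 731 bp, and the 267 regions of 1000 bp or more had a median width of 1262 bp. Summed over both members, the median pair had 156 ChIP tags and a scaled control of 49, and the median broad region had 260 and 82. The median ratio was 3.03 for pairs (middle 50% from 2.55 to 3.66) and 3.05 for broad regions (middle 50% from 2.38 to 4.12). Per kb covered, ChIP tags were 207 in pairs and 192 in broad regions. The scaled control per kb covered was also higher in pairs, at 66.7 against 60.35. The rule largely fixes these totals and spans, since members cannot pass the q-value limit or lie farther than 1000 bp apart, while broad regions have no q-value limit and are at least 1000 bp wide. Tags in the gap between the members are not counted in these values. A summed total of 200 or more ChIP tags was reached by 70 pairs (22.1%).

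The members were spread over all 6 chromosomes, with V and X holding most. Chromosome V had 215 members, X 184, IV 157, III 125, II 124 and I 39. As a share of the regions of the same width and q class, this was 19.7% on V, 17.2% on IV, 17.1% on X, 16.6% on III, 16.4% on II and 8.06% on I. Chromosome I also had the lowest density of listed regions, 36.0 per Mb, while the other chromosomes had 56.0 to 71.0. The share of regions with a close neighbour depends on that density, and its part in the value of I was not tested. The median ratio of members was lowest on I, at 2.33, and highest on V, at 3.17, where lone regions had medians of 2.44 and 2.91.

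Members were denser in the middle of each chromosome. With every chromosome divided into 3 parts of equal length, the middle parts of the autosomes held 370 members, or 13.5 per Mb, and the outer parts 290, or 5.27 per Mb. Eligible regions as a whole went from 63.6 to 40.9 per Mb, and the share of them that were members from 21.2% to 12.9%. Chromosome II showed the widest contrast, with 24.6% in the middle against 9.31% in the outer parts, and III the narrowest among autosomes, with 19.6% against 14.9%. On X the shares were 21.1% and 14.7%. All 6 chromosomes had the higher share in the middle, and the density of listed regions, which moves with it, was not separated from it.

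**Figure D5:**
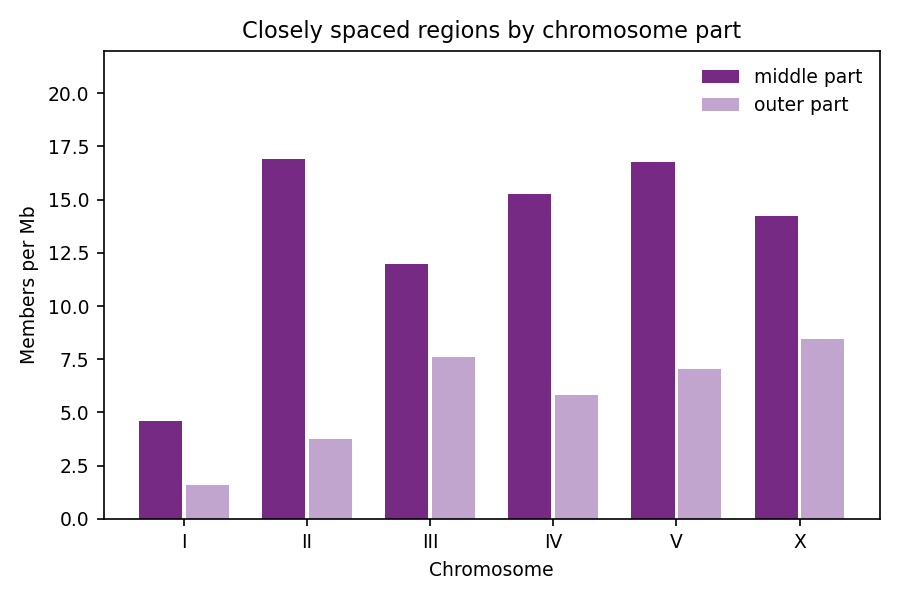
Members per Mb (y axis, bars from 0) in the middle and the 2 outer of 3 equal parts of each chromosome (x axis). The middle is higher on all 6 chromosomes, most on II with 16.9 against 3.73 per Mb.

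Members were also counted by window, where the rule itself brings them together, as it admits a region only beside a neighbour. Of 1005 windows of 100 kb, 319 held at least 1 member, and 16 held 6 or more, with 106 members between them. The window with most members was X 6600001 to 6700000, with 10 members in 5 runs among 18 listed regions. Their ratios ran from 1.89 to 5.25 and their ChIP tags from 21 to 120. They included 3 members in a row from 6666919 to 6668287, with ratios of 1.89, 3.76 and 2.40, and 3 couples of members, while 1 member at 6608310 to 6608419 stood beside a wide region at 6606919 to 6608023 with a ratio of 6.46. The next window, IV 4400001 to 4500000, held 8 members in 3 runs among 23 listed regions. Both windows were picked with their counts already known. Their 18 and 23 listed regions were each counted in only 100 kb. X as a whole had 71.0 listed regions per Mb and IV 60.0, so both windows were denser than their chromosomes. This density was not separated from the number of members.

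The regions at the limits of the rule are listed as a description. At the distance limit, the region II 14043160 to 14043529 had its neighbour at 1000 bp, and II 8484404 to 8485052 just missed it at 1001.5 bp. The widest member, III 13766393 to 13767345, was 953 bp wide. The narrowest region of 1000 bp or more with such a neighbour, X 6606919 to 6608023, was 1105 bp wide. Its q-value of 3.16e-44 also lay far below the q-value limit. The lowest q-value among members was 1.20e-20, at III 9689274 to 9689647, with a ratio of 6.65, and the first below the limit was 9.51e-21, at V 20724317 to 20724783, with a ratio of 4.06. The genes and sequences at these positions were not analysed here.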

How the data were processed

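ChIP-seq of PQM-1::GFP was analysed from 1 list of regions that covers every library. Per the file headers, the authors deposited PeakSeq regions on WormBase WS180 coordinates with a q-value each. The sources used here do not give the aligner, the version of PeakSeq, the depth per library or how replicates were joined. The q-value was read as a lower binomial tail (chance 0.5) times the number of tested regions over the row number. Trying every whole number from the list length upward, 12873 tested regions matched 100% of 200 sampled rows, and the next best 0.5% (tolerance 1e-11 on the natural log). This gave 1 pair of tag numbers for 5802 of 5803 rows, members included. What these numbers mean was not checked against reads.

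Members, runs and links were found with Python 3.11.15, numpy 2.4.6, pandas 2.3.3 and scipy 1.17.1, and the steps were tested on simulated data. The members, the lists and the measures were chosen with earlier results of these data known. Regions named in the text are the 3 closest links, the longest run, the 5 pairs with the lowest larger q-value, the 3 most and 3 least alike links with at least 50 ChIP tags, the regions at each limit and the 3 members beside the strongest non-members. The runs of 4 and the windows were added. Regions are not replicates, so no p-value is given.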

Additional observations from a re-analysis of the deposited data

How the results depend on the processing

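The number of members followed the limits. It was 26, 339, 1555 and 2042 with midpoints within 500, 750, 1500 and 2000 bp (shares of the class 0.512%, 6.68%, 30.6% and 40.2%, runs with 2 or more members 13, 158, 632 and 792). It was 509 and 233 for regions with q-values under 0.001 and 1e-05 only (shares 13.3% and 9.39%, runs 223 and 96). Edges at most 500 bp apart gave a share of 15.2%, and neighbours of the same class only gave 15.5%. The count stayed within 1.5 times 844 without the width or the q-value limit, without regions under 100 bp and without chromosome I, the last 2 chosen after seeing the data.

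Spearman's rank correlation of the ratio between neighbours was 0.15. It turned to -0.27 within 500 bp (13 links), to -0.043 for ChIP tags per kb and to -0.028 for the q-value, and moved to 0.041 for ChIP tags and 0.36 for the scaled control per kb, both added later. The median absolute log2 difference moved to 0.35 within 500 bp and 0.44 with no width or q-value limit, and the share within 1.5-fold to 92.3% and 62.4%. The cause of these moves was not tested. The other alternatives of these 3 results kept their direction, with rank correlations from 0.080 to 0.21. No paired analysis was possible because both replicates were merged into 1 list, and no replicate could be left out. The depth of each library was not analysed here, and counting error limits what a single link shows.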
